A study of Homo sapiens with 4 samples.

Results

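WNT5A, the WNT ligands WNT5B, WNT7B and WNT1, the frizzled receptors FZD1, FZD2, FZD6 and FZD7, the co-receptor LRP6 and the secreted inhibitor DKK1 were followed across PIAS1 knockdown and a change of medium in MDA-MB231, a human breast cancer cell line. The members were all probe sets, groups of short array probes for a transcript, that the platform's gene table lists for one of these 10 genes alone. They came to 14 of the 22277 probe sets on the array. The cells carried either a scrambled control shRNA or PIAS1 shRNA2, which targets the SUMO ligase and transcriptional repressor PIAS1, each expressed from the U6 promoter of a stably integrated lentivirus under puromycin selection. Each line grew for 30 h either in serum medium (DMEM plus 10% FBS) or in SCM, a serum-free DMEM/F-12 medium with albumin, EGF, basic FGF and insulin that favors stem-like cells. Whether the lines were clones or pools is not given in the sources used here. A single Affymetrix expression array stands for each of the 4 conditions, so the differences below have no replicates and no p-values. Values from 1 knockdown line cannot tell the loss of PIAS1 apart from another difference between the lines.

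WNT proteins are secreted, lipid-modified ligands that bind frizzled receptors on the cell surface. With the co-receptors LRP5 and LRP6 they stabilize beta-catenin, which then activates genes with TCF and LEF factors, and DKK1 blocks this branch by binding LRP6. WNT5A acts mostly without beta-catenin, through frizzled receptors together with ROR1, ROR2 or RYK. In the breast, WNT1 is known as a mammary oncogene of the mouse, and WNT5A as a candidate tumor suppressor that also shapes the mammary gland.

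Signals are MAS5 array intensities on a linear scale, and their levels are compared only within a probe set. Low signals were judged by 66 probe sets of 49 genes that breast cells are not known to use, for example crystallins. The background floor was the 75th percentile of these off-tissue probe sets, 183 on the array where it was highest. Signals under 183 were raised to it before ratios were taken, so a ratio with its dimmer signal under the floor is a lower bound. Where both signals lay under the floor, no ratio is given. Between 64.5% and 68.3% of the probe sets on an array were above it, and of the 14 member probe sets all were above it on at least 1 array and 11 on all 4. PIAS1 itself, on the brightest of its 3 probe sets, had a log2 ratio of PIAS1 shRNA over control shRNA of -1.43 in SCM and -1.43 in DMEM, and it was lower on the other probe sets in both media, by as little as -0.36. All 5 markers of mesenchymal-like breast cancer cells, such as VIM and CD44, were above the floor on all arrays. Of 5 luminal markers, PGR, FOXA1 and CDH1 were under it on all arrays, while GATA3 and ESR1 were above it. ESR1 was near the floor in DMEM, with 216 in control and 206 in PIAS1 shRNA cells, and read 706 and 357 in SCM. The paper reports ESR1 as induced by PIAS1 knockdown on its arrays and by quantitative PCR, which did not detect ESR1 in control shRNA cells. The SCM signals given here stand in the opposite order, on the brightest probe set of ESR1, the only one shown. Of 4 leukocyte markers, CD14 was above it on all arrays, ITGB2 on 3, CD3E on 2 and PTPRC on none. Of 5 fibroblast markers, COL1A1 and COL1A2 were above it on all arrays, DCN on 3, COL3A1 on 1 and LUM on none.

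WNT5A was low in control shRNA cells and higher in PIAS1 shRNA cells. In DMEM its brighter probe set read 53.7 in control and 359 in PIAS1 shRNA cells, and in SCM 20.2 and 756. Both control signals lay under the floor and both PIAS1 shRNA signals above it. WNT5A was therefore at least 4.14-fold higher with PIAS1 shRNA in SCM, and 0.154% of the 14271 probe sets above the floor in that comparison had a ratio at least as high. In DMEM it was at least 1.97-fold higher, a ratio reached by 1.78% of 13732 probe sets. Taken as deposited, with no floor, the signals stood 37.5-fold and 6.70-fold apart in SCM and DMEM, ratios that rest on control values in the range of background. The bound of WNT5A in DMEM lay just under 2-fold. Its log2 ratio was 1.01 after scaling to a common median, 1.13 after quantile normalization and 0.93 after scaling to equal ACTB. The floor was taken anew under each scaling, at 179, 167 and 182 in that order. With the control signal under the floor, these ratios move with the floor, and those of 2 of the 3 scalings passed 2-fold. With the floor moved up to 351, the off-tissue 95th percentile, the WNT5A log2 ratio was 1.11 in SCM and 0.03 in DMEM. The other WNT5A probe set read 6.87 and 41.6 in DMEM and 9.21 and 236 in SCM, in the same order. Only its signal in PIAS1 shRNA cells in SCM was above the floor, at least 1.29-fold over the control.

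WNT5A also differed between the media in PIAS1 shRNA cells, where it was 2.10-fold higher in SCM than in DMEM on the brighter probe set. Of all probe sets above the floor in that comparison, 9.36% had a ratio at least as high. In control shRNA cells both signals were under the floor, so WNT5A has no order between the media there. The log2 ratio of PIAS1 shRNA over control shRNA in SCM minus that in DMEM was 1.07, and it has no test. With both control signals raised to the floor, it is the log2 ratio between the media in PIAS1 shRNA cells over again. As a difference of 2 lower bounds it is not itself a bound.

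The promoter of WNT5A is shown because the study probed PIAS1 binding, histone marks and DNA methylation there. RefSeq lists 2 starts for WNT5A, and the primer pair of the chromatin experiment matched around the upstream one. Its window shown here is chr3:55487307-55487556 on the minus strand of GRCh38.p14. These are the 250 bases before the transcript start, with each CG, the site of DNA methylation, in capitals.
WNT5A: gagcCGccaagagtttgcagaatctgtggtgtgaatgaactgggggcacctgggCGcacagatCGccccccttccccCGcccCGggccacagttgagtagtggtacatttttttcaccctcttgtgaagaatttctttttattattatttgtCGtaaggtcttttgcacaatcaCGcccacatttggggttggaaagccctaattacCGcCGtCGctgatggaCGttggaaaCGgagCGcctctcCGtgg
The window holds 14 CG, and 44.8% of 35116 RefSeq promoters hold at least as many in 250 bases. The amplified piece spans 174 bases, chr3:55487299-55487472, and holds 9 CG. Its last 8 bases, within the reverse primer, lie past the transcript start and are not shown. One of the bisulfite primers matched the same window at chr3:55487350-55487372, once each C was read as T. The arrays measured RNA only, so neither binding nor methylation of this sequence was analysed here.

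The other WNT ligands showed smaller ratios or signals too low for one. WNT5B, the closest relative of WNT5A, read 1366 with control shRNA and 1509 with PIAS1 shRNA in DMEM, and 810 and 1033 in SCM. It was 1.10-fold higher with PIAS1 shRNA in DMEM and 1.27-fold higher in SCM, ratios matched or passed by 33.2% and 16.4% of probe sets. WNT5B was lower in SCM in both lines, 1.69-fold with control shRNA and 1.46-fold with PIAS1 shRNA. WNT5B and WNT5A thus stood in opposite order between the media in PIAS1 shRNA cells.

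WNT7B, a ligand of epithelia and of macrophages, was close to background. It read 275 and 335 in DMEM and 273 and 185 in SCM, with the control shRNA value first in each pair. It was 1.22-fold higher with PIAS1 shRNA in DMEM and 1.48-fold lower in SCM, where the signal of 185 was barely above the floor. WNT1 read 74.0 and 225 in DMEM and 99.3 and 9.99 in SCM. Its signal in PIAS1 shRNA cells in DMEM was the one WNT1 value above the floor, at least 1.23-fold over the control. No ratio can be given for WNT1 in SCM. With the floor moved down to 102, the off-tissue median, the log2 ratio of WNT1 in DMEM was 1.15. With the floor moved up to 351, the off-tissue 95th percentile, both DMEM signals lay under it. The size thus depends on where background is set. The paper used WNT1 as a control in its quantitative PCR and saw no significant effect of PIAS1 knockdown on it.

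**Figure D1:**
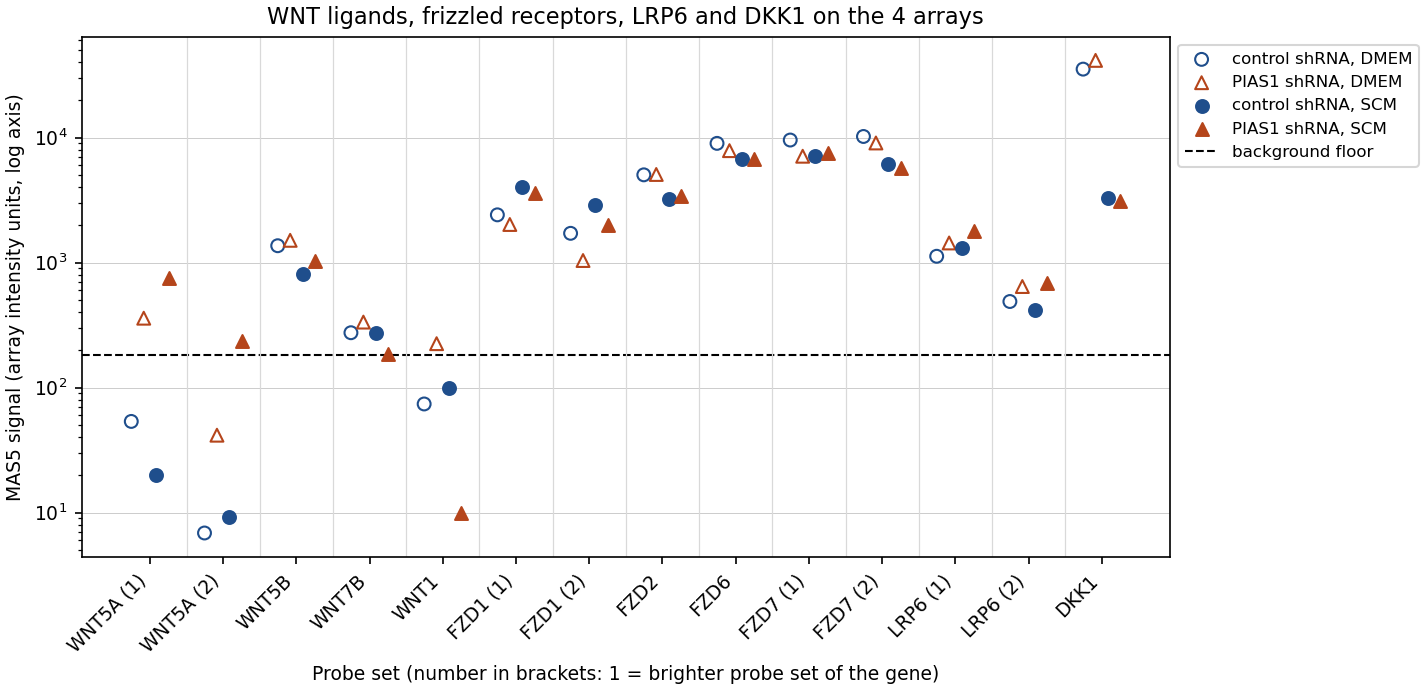
MAS5 signal (array intensity units, log axis) of the 14 probe sets of the 10 genes (x axis) on the 4 arrays; circles are control shRNA and triangles PIAS1 shRNA, open in DMEM and filled in SCM, with a dashed line at the floor of 183. The triangles of WNT5A lie above its circles on both probe sets, and the filled symbols of DKK1, at 3321 and 3104, lie far below its open ones, at 35378 and 41564.

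DKK1, the inhibitor that binds LRP6, differed most between the media. It read 35378 with control shRNA and 41564 with PIAS1 shRNA in DMEM, and 3321 and 3104 in SCM. DKK1 was 10.7-fold lower in SCM in control shRNA cells and 13.4-fold lower in PIAS1 shRNA cells. Of all probe sets above the floor, 0.0853% and 0.0843% had a ratio at least as low in these comparisons. Between the lines DKK1 was 1.17-fold higher with PIAS1 shRNA in DMEM and 1.07-fold lower in SCM, so both SCM signals lay far under both DMEM signals whichever shRNA the cells carried. Every scaling kept the log2 ratio of DKK1 between -3.50 and -3.41 in control shRNA cells and between -3.78 and -3.68 in PIAS1 shRNA cells.

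The promoter of DKK1 is shown as that of the member that differed most between the media, and because DKK1 is a known target of beta-catenin. It covers the 250 bases before the start, chr10:52314031-52314280 on the plus strand of GRCh38.p14, from RefSeq. Capitals mark CTTTGA, a form of the core that TCF and LEF factors recognize, and TATAAA, the TATA box. CTTTGA was marked on either strand, as TCAAAG on the other, and further forms of the core were not searched.
DKK1: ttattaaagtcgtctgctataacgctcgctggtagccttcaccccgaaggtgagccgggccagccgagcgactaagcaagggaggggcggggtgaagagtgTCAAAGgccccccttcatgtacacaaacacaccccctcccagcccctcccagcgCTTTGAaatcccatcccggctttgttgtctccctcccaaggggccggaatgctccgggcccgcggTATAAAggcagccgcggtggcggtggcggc
The CTTTGA matches lie 144 to 149 and 90 to 95 bases before the start and the TATA box 25 to 30 bases before it. CTTTGA was found on either strand in 11.2% of all 35116 promoters, and TATAAA, read on the gene's strand, in 6.80%. Of the 7 promoter windows listed for WNT5A, WNT5B, WNT1, FZD1 and DKK1, only that of DKK1 holds either motif. FZD2, FZD6, FZD7, LRP6 and WNT7B have no entry in the table. A match of letters does not show that a factor binds there.

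The frizzled receptors were well above background on all arrays. FZD1 was higher in SCM, with 2414 and 2021 in DMEM and 4001 and 3638 in SCM for control and PIAS1 shRNA. It was 1.66-fold higher in SCM with control shRNA and 1.80-fold higher with PIAS1 shRNA, and its other probe set gave 1.67-fold and 1.93-fold. On that probe set FZD1 read 1717 and 1040 in DMEM and 2875 and 2010 in SCM. Both SCM signals were above both DMEM signals on either probe set. FZD1 was lower with PIAS1 shRNA in all pairs, 1.19-fold and 1.65-fold in DMEM and 1.10-fold and 1.43-fold in SCM for the brighter and the other probe set. The larger DMEM ratio was matched or passed downward by 2.89% of probe sets, and the probe sets of FZD1 disagreed in it by less than the 90th percentile of such differences, 0.60 on the log2 scale over 2764 genes.

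FZD2 was lower in SCM. It read 5045 and 5079 in DMEM and 3208 and 3386 in SCM, 1.57-fold lower with control shRNA and 1.50-fold lower with PIAS1 shRNA. Between the lines FZD2 differed by log2 ratios of 0.01 in DMEM, a sign that turned with another scaling, and 0.08 in SCM. FZD6, a receptor also tied to planar cell polarity, read 9009 and 7877 in DMEM and 6760 and 6815 in SCM. It was 1.33-fold lower in SCM with control shRNA and 1.16-fold lower with PIAS1 shRNA. Both SCM signals of FZD2 and of FZD6 lay under both of their DMEM signals.

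FZD7 gave different pictures on its 2 probe sets. On the one with the higher mean it read 9578 and 7106 in DMEM and 7105 and 7505 in SCM, and its single high value was that of control shRNA cells in DMEM. On the other it read 10226 and 9074 in DMEM and 6104 and 5727 in SCM, 1.68-fold lower in SCM with control shRNA and 1.58-fold lower with PIAS1 shRNA. The log2 ratio of SCM over DMEM in PIAS1 shRNA cells was 0.08 on the first and -0.66 on the second. These differ by less than 0.80, the 90th percentile of the differences between the probe sets of a gene. In control shRNA cells both probe sets were lower in SCM, with log2 ratios of -0.43 and -0.74, so the probe sets of FZD7 disagreed in the order of the media in PIAS1 shRNA cells alone.

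LRP6, the co-receptor of the beta-catenin branch, was a little higher with PIAS1 shRNA on both probe sets and in both media. On the brighter it read 1125 and 1438 in DMEM and 1307 and 1802 in SCM, 1.28-fold and 1.38-fold higher with PIAS1 shRNA. On the other it read 489 and 644 in DMEM and 415 and 683 in SCM, 1.32-fold and 1.65-fold higher. The largest of these, in SCM, was matched or passed by 4.58% of all probe sets in its comparison, and the smallest, in DMEM, by 15.3%. Between the media LRP6 had log2 ratios from -0.24 to 0.33, with both signs.

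Over all members, 1 of the 13 probe sets above the floor in SCM was at least 2-fold higher with PIAS1 shRNA, that of WNT5A, and none was 2-fold lower. Over all probe sets these shares were 2.02% higher and 1.65% lower. In DMEM none of 13 was 2-fold different, where 1.59% of all probe sets were higher and 1.0% lower. Between the media 1 of 11 was 2-fold lower in control shRNA cells, DKK1, where 10.3% of all were lower and 11.0% higher. In PIAS1 shRNA cells 1 of 14 was 2-fold higher, WNT5A, and 1 lower, DKK1, where 10.7% and 10.4% of all were. With 11 to 14 members above the floor, these single calls do not set the members apart as a list. The median log2 ratio of the members was 0.08 in SCM and 0.14 in DMEM for PIAS1 shRNA over control shRNA, and -0.0042 and 0.02 over all probe sets above the floor. For SCM over DMEM it was -0.41 in control and -0.07 in PIAS1 shRNA cells, and 0.04 and -0.01 over all. Of 11 member probe sets above the floor in both lines, 9 (81.8%) stood in the same order between the media in both, as did 81.2% of all 13357.

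**Figure D2:**
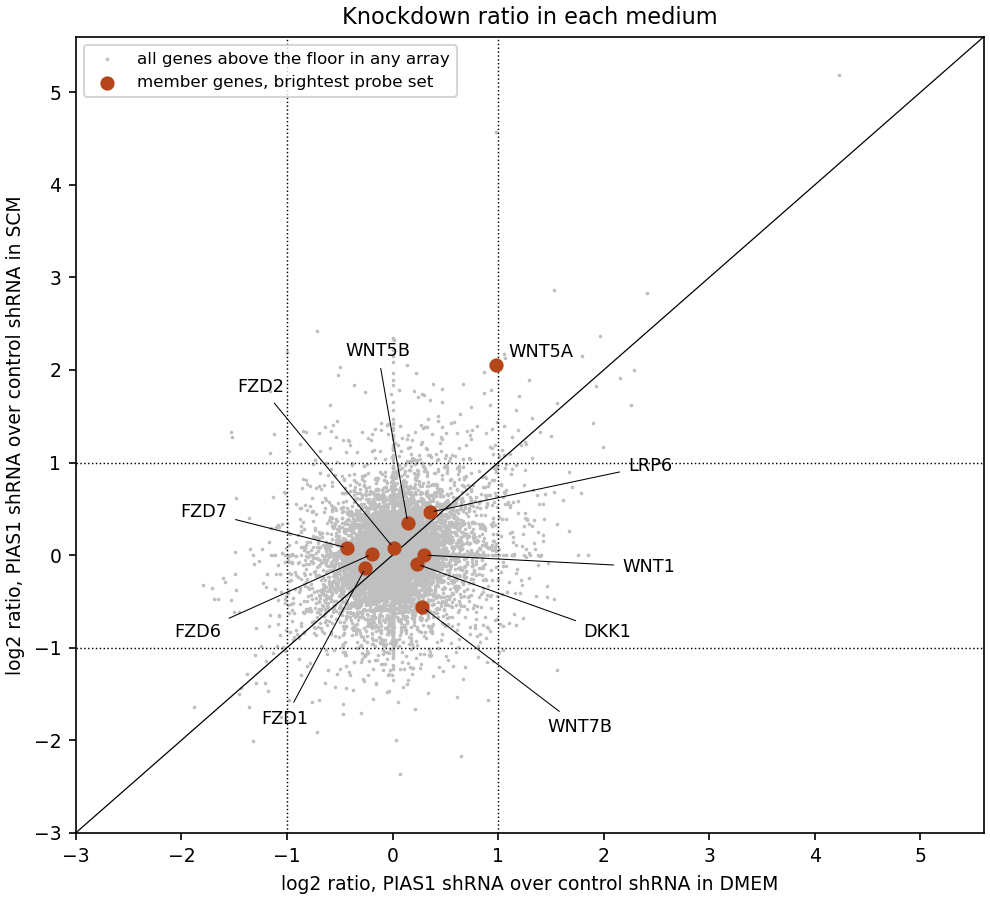
Knockdown log2 ratios, PIAS1 shRNA over control shRNA, with DMEM on the x axis and SCM on the y axis, 1 gray point for each gene above the floor on any array and red points for the 10 members, each on its brightest probe set, with 1 array per condition; dotted lines mark 2-fold and the solid line equal ratios. WNT5A, at least 0.98 and 2.05, lies apart from the other members, which are plotted under 2-fold in both media. The point of WNT1 is a lower bound in DMEM and is set to 0 by the floor in SCM, where it has no ratio.

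**Figure D3:**
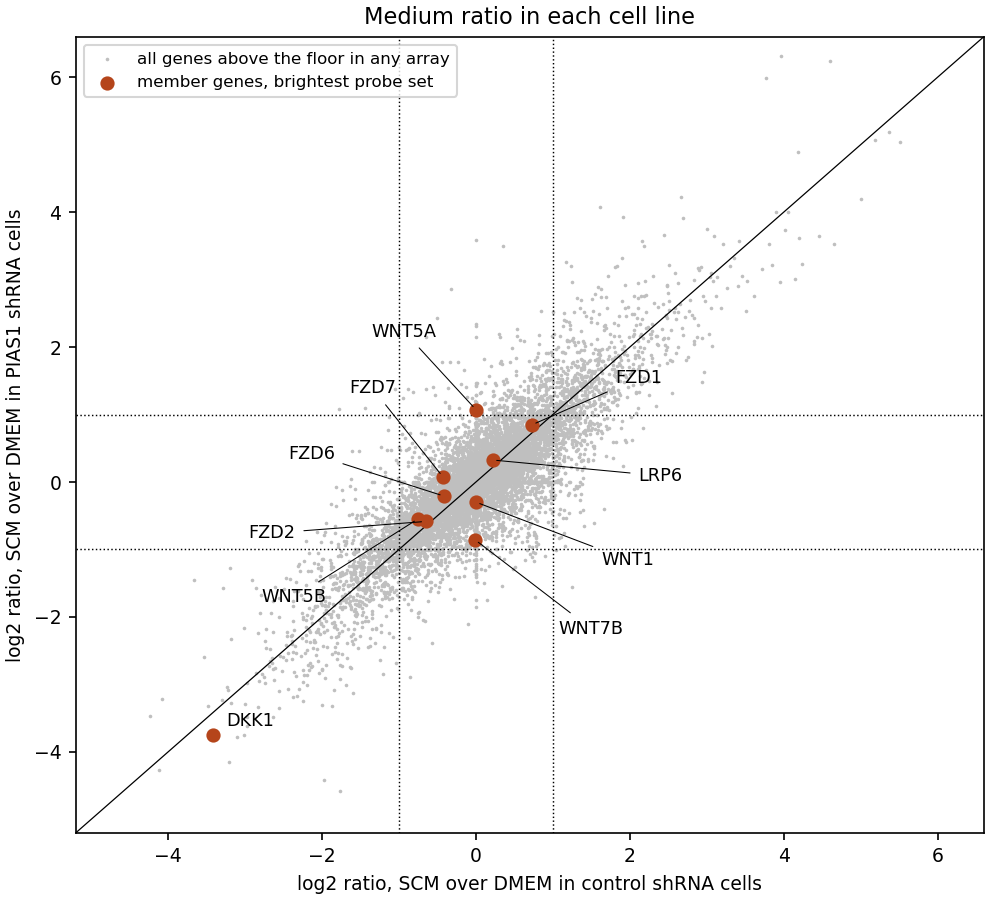
Log2 ratio of SCM over DMEM in control shRNA cells (x axis) and in PIAS1 shRNA cells (y axis), with the points and lines as in the plot of knockdown ratios. DKK1 lies at -3.41 and -3.74, FZD1 at 0.73 and 0.85, and WNT5A at 0, set by the floor, and 1.07.

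The rest of the WNT pathway was described by a list of 112 genes, of which 86 are read by a probe set of their own. Without the members, 3 of the 59 listed genes above the floor in SCM (5.08%) were at least 2-fold higher with PIAS1 shRNA and none was 2-fold lower, where 2.19% of all genes were higher and 1.50% lower. In DMEM 4 of 58 (6.90%) were higher and none lower, where 1.54% and 0.868% of all genes were. That none was 2-fold lower depends on the floor. With control shRNA first, CELSR1 read 363 and 162 in DMEM, at least 1.99-fold lower with PIAS1 shRNA. The secreted inhibitor SFRP1 read 324 and 39.5 in SCM, at least 1.77-fold lower. The median log2 ratio of these other pathway genes was -0.04 in SCM and 0.02 in DMEM. Between the media, 6 of 58 were higher and 5 lower in SCM in control shRNA cells, and 4 of 57 were higher and 7 lower in PIAS1 shRNA cells. Of all genes, 10.7% were higher and 10.7% lower in control shRNA cells, and 10.9% and 10.4% in PIAS1 shRNA cells.

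Among the receptors that take part in WNT5A signalling, PTK7 and ROR1 were higher with PIAS1 shRNA. PTK7, a catalytically inactive receptor kinase of the planar polarity branch, read 618 and 1549 in DMEM and 804 and 1663 in SCM, 2.50-fold and 2.07-fold higher. ROR1, a receptor kinase that binds WNT5A, read 2180 and 3679 in DMEM and 421 and 1079 in SCM on its brighter probe set, 1.69-fold and 2.56-fold higher. On its other probe set ROR1 read 438 and 1096 in DMEM but 381 and 353 in SCM, so the difference in SCM was not seen there, and its probe sets disagreed by more than the 90th percentile of such differences in SCM, 0.61. ROR1 was lower in SCM on the brighter probe set, with log2 ratios of -2.37 in control and -1.77 in PIAS1 shRNA cells, and on the other with -0.20 and -1.63. ROR2 was under the floor on all arrays, and RYK had log2 ratios of PIAS1 shRNA over control shRNA of 0.05 in DMEM and 0.12 in SCM.

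LRP5, the partner of LRP6, was higher in SCM than in DMEM in both lines, the reverse of the order of DKK1. It read 3857 and 3181 in DMEM and 12695 and 11293 in SCM, 3.29-fold higher with control shRNA and 3.55-fold with PIAS1 shRNA. KREMEN2, a cell surface receptor of DKK1, was at least 2.12-fold higher with PIAS1 shRNA in DMEM, with 170 and 387, and 1.47-fold higher in SCM, with 226 and 332. LGR5, a receptor for R-spondins, read 167 and 465 in DMEM and 31.9 and 192 in SCM, at least 2.55-fold higher with PIAS1 shRNA in DMEM, and was 2.42-fold lower in SCM than in DMEM with PIAS1 shRNA. Its other probe set was under the floor throughout. WLS, which carries WNT proteins to the cell surface, had log2 ratios of -0.01 in DMEM and 0.61 in SCM. Of the frizzled receptors outside the members, FZD4 and FZD5 were lower in SCM in both lines and FZD3 higher, all by less than 2-fold, and FZD9 and FZD10 were under the floor on all arrays. Of the ligands outside the members, WNT10B was at least 2.13-fold higher in SCM in control shRNA cells, with 178 in DMEM and 390 in SCM, and 1.40-fold higher in PIAS1 shRNA cells. WNT6 was above the floor on all arrays and WNT2 on 1, and the brightest probe sets of the 6 others measured were under it on all.

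**Figure D4:**
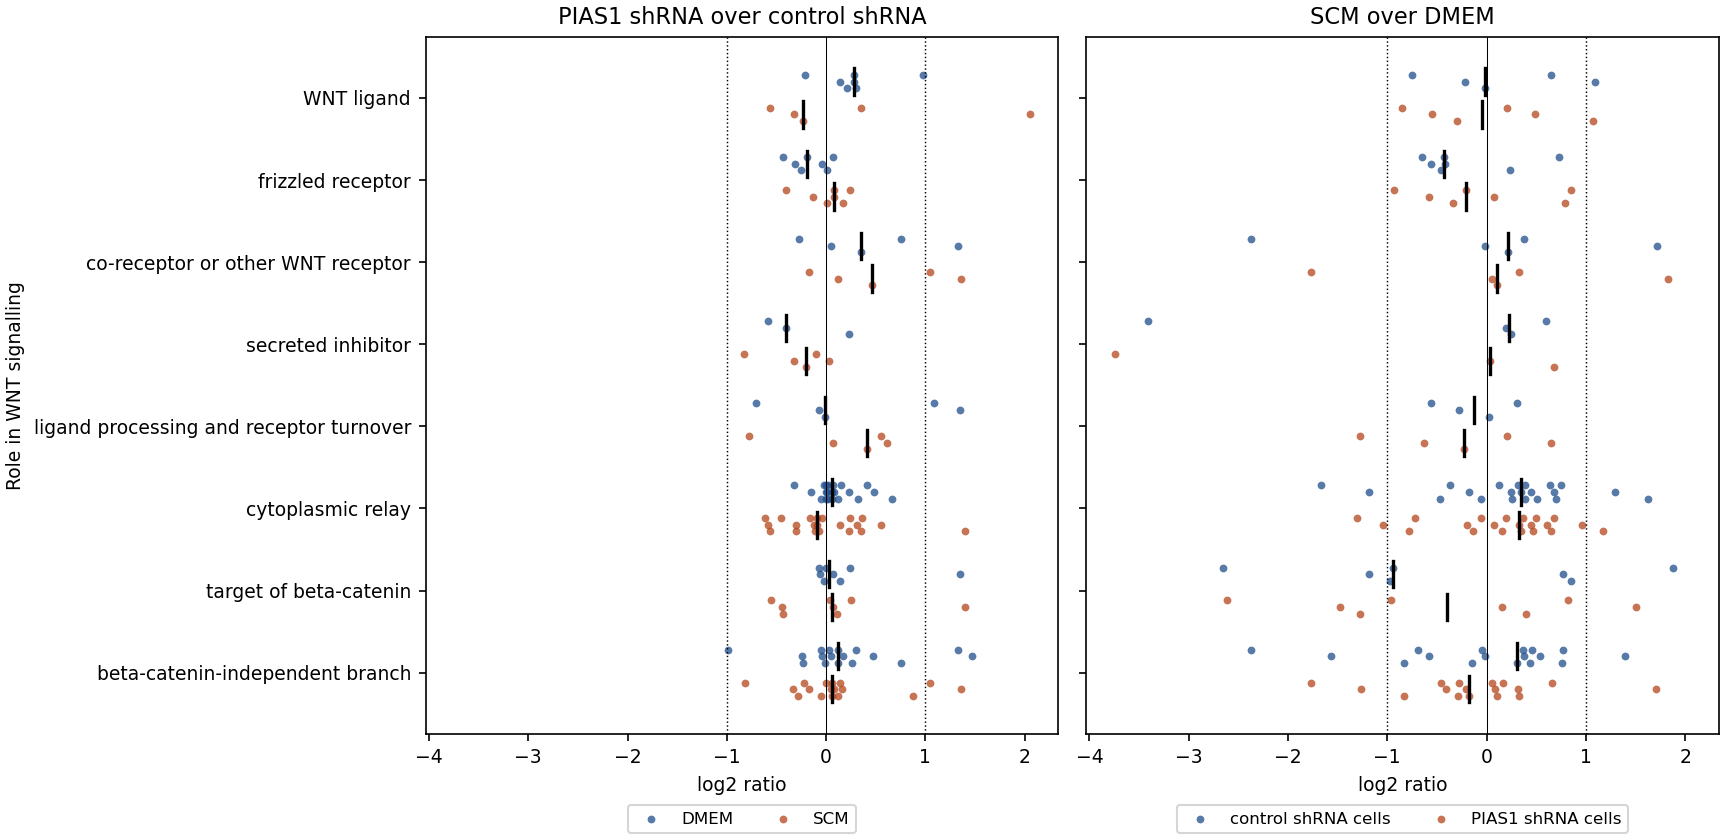
Log2 ratio (x axis) of each listed WNT pathway gene above the floor, by role (y axis), for PIAS1 shRNA over control shRNA (left) and SCM over DMEM (right), 1 array per condition; colors give the medium or the cell line, bars the median of a role and dotted lines 2-fold. WNT5A, at 2.05 in SCM, is the ligand farthest to the right in the left panel, and DKK1, at -3.41 and -3.74, the inhibitor farthest to the left in the right panel.

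The genes most like WNT5A over the 4 arrays were found by the root mean square difference of log2 signals, each centered on its own mean, among 9711 other genes. Signals under the floor were first raised to 183, which both control values of WNT5A were, so the differences and ranks hold for that floor and not for the deposited signals, on which WNT5A spans a wider range. They were PID1, which encodes an adaptor protein, with a difference of 0.12, the nebulin family gene NEBL with 0.12, PARM1 with 0.13, the secreted ribonuclease gene RNASE1 with 0.19 and PI3, which encodes the elastase inhibitor elafin, with 0.24. PID1 read 526 and 1103 in DMEM and 613 and 2680 in SCM, all above the floor. NEBL read 173 and 349 in DMEM and 217 and 749 in SCM. In both, as in WNT5A, PIAS1 shRNA cells were higher in each medium and highest in SCM. With 4 points per gene, of which the floor set 2 for WNT5A, such likeness is a description and says nothing of shared control.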

How the data were processed

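RNA of MDA-MB231 cells was hybridized to 4 Affymetrix arrays, 1 per condition. The authors deposited signal intensities. Per the submitters' notes these are MAS5 values, with no version, settings or detection calls in the sources used here. The trimmed mean without the lowest and highest 2% was 2501 on each array, so each had been scaled by 1 factor. The platform's gene table lists 19070 probe sets for 1 gene and 1043 for several, and 2164 are unnamed here. Of 19058 Entrez identifiers matched in RefSeq, 0 symbols differed. Each of 11963 genes was represented by its brightest probe set (mean log2 signal).

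The off-tissue 75th percentile was 120 and 134 in DMEM and 183 and 154 in SCM, for control and PIAS1 shRNA, and the highest was the floor on all arrays. The 3' to 5' ratio of ACTB lay between 0.946 and 1.11. Ratios have no test, since each condition has 1 array. The number of arrays limits the precision. Each knockdown comparison shares an array with each medium comparison. Members and lists were chosen with earlier results of these data known. Named were every member, other pathway genes at least 2-fold different in any comparison, the brightest gene of each role and the 5 genes most like WNT5A. ROR2, RYK, WNT2, WNT6, SFRP1 and the other frizzled receptors were added after their values were seen. Ratios were computed in Python 3.11.15 (pandas 2.3.3, NumPy 2.4.6, SciPy 1.17.1; plots in matplotlib 3.10.9), with the code tested on simulated data. The closing section gives the other floors, scalings and probe set rules tried.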

Additional observations from a re-analysis of the deposited data

Results flagged for a closer look

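WNT7B stood in opposite order in the 2 media, higher with PIAS1 shRNA in DMEM (log2 ratio 0.28) and lower in SCM (-0.56). The difference of these ratios, SCM minus DMEM, was -0.84 on the log2 scale. With 1 array per condition this difference was not tested, and all 4 WNT7B signals, from 185 to 335, lay under the higher floor of 351.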

How the results depend on the processing

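The alternatives were a lower floor of 102, a higher floor of 351, no floor, scaling to a common median, quantile normalization, scaling to equal ACTB, and the mean of a gene's probe sets. Recomputed under these, the ratios of WNT5A and the counts of calls stayed within 1.5 times those reported in 61 cases and moved further in 26, and none past 2-fold turned its direction. The WNT5A log2 ratio in SCM was 2.90 with the lower floor, 1.11 with the higher, 5.23 with none and 1.21 when its probe sets were averaged, and in DMEM 1.82, 0.033 and 2.74 with these floors. With no floor, WNT5A had -1.41 between the media in control shRNA cells and 2.48 for the difference of the knockdown ratios. Members at least 2-fold different with knockdown numbered 2 in SCM and 2 in DMEM with the lower floor, 3 and 3 with none, and 1 in DMEM after common median scaling or quantile normalization. Between the media they numbered 4 in PIAS1 shRNA cells with the lower floor, and 2 in control and 4 in PIAS1 shRNA cells with none. Pathway genes with knockdown numbered 9 in DMEM with the lower floor and 2 with the higher, 14 in SCM and 20 in DMEM with none, and 2 in SCM when probe sets were averaged. Between the media they numbered 22 and 25 with no floor and 7 in control shRNA cells with the higher floor, against 12 and 13. Counts thus grow as the floor falls, since low signals then enter as ratios. Each scaling also had a floor of its own. Leaving out an array leaves no comparison. No paired analysis was possible because each condition has 1 array.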

Other observations

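Of the 21 cytoplasmic relay genes above the floor, 2 were at least 2-fold higher and 2 lower in SCM than in DMEM in control shRNA cells, and 1 and 2 in PIAS1 shRNA cells, where 10.7% and 10.7%, and 10.9% and 10.4%, of all genes were. Of the beta-catenin targets, 1 of 7 was higher and 2 lower in control shRNA cells, and 1 of 8 and 3 in PIAS1 shRNA cells. DKK1, listed as an inhibitor, and AXIN2, NKD1 and SP5, without a probe set of their own, are not in this count. LEF1 is counted both as a relay gene and as a target. CCND1, a target of beta-catenin that drives entry into S phase, read 11550 with control shRNA and 11524 with PIAS1 shRNA in DMEM and 1837 and 1887 in SCM, log2 ratios of -2.65 and -2.61. Its other probe set gave -2.29 and -2.58. MMP7, a matrix protease and known target of TCF factors, was 3.67-fold higher in SCM in control shRNA cells and at least 2.83-fold higher in PIAS1 shRNA cells, with 191 and 25.6 in DMEM and 700 and 518 in SCM. FOSL1, an AP-1 subunit, had log2 ratios of SCM over DMEM of -0.94 and -1.48, and CD44, an adhesion receptor, 0.85 and 0.82. VANGL1, a planar cell polarity protein, was lower in SCM in both lines, with -1.57 and -1.27, and CELSR1, a polarity cadherin, was 1.70-fold higher in control and at least 3.26-fold higher in PIAS1 shRNA cells, on the 1 of its 3 probe sets above the floor. RAC1, a small GTPase of that branch, had -0.15 and -0.20.

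Among the nuclear factors of the beta-catenin branch, the corepressor gene TLE1 was lower in SCM on all 3 probe sets, with -1.67 and -1.31 on the brightest. TCF7L2, a TCF factor, was higher in SCM on all 6, with 0.70 and 1.18 on the brightest. BCL9, a coactivator, was 3.09-fold higher in SCM in control and 1.57-fold higher in PIAS1 shRNA cells, and TLE2 at least 2.45-fold and 1.52-fold. PYGO1, another coactivator, had -0.37 and -1.04 between the media. CSNK1A1, a kinase of the beta-catenin destruction complex, had log2 ratios of 0.00 in DMEM and 0.24 in SCM with PIAS1 shRNA.

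The probe sets of LEF1 and of NFATC1 gave different pictures. LEF1, a partner and target of beta-catenin, read 414 and 434 in DMEM and 57.5 and 482 in SCM, at least 2.64-fold higher with PIAS1 shRNA in SCM. Its other probe sets did not show this. The next read 198 with control and 81.3 with PIAS1 shRNA in SCM, the reverse order, with only the 198 above the floor. The last was under the floor on all arrays. NFATC1, a calcium-dependent transcription factor, was 2.76-fold higher with PIAS1 shRNA in DMEM on its brightest probe set, with 256 and 706, but in SCM it read 670 and 530, a log2 ratio of -0.34. The next probe set gave knockdown log2 ratios of 0.19 in DMEM and 0.70 in SCM. A further one gave -0.09 in DMEM, with 1 signal under the floor, and -0.32 in SCM. The remaining NFATC1 probe sets were under the floor on all arrays. Between the media NFATC1 was 2.62-fold higher in SCM in control shRNA cells on the first, with -0.41 in PIAS1 shRNA cells, and on the next 1.63-fold higher in control and 2.32-fold higher in PIAS1 shRNA cells.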
